A study of Mus musculus with 6 samples.

Results

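The miR-106b-25 and miR-106a-363 clusters are 2 groups of microRNA (miRNA) genes that arose as copies of the miR-17 cluster, the hairpins from miR-17 to miR-92a in the host gene Mir17hg. Their mature products were followed in exosomes, small vesicles that cells release, from cultured mouse endothelial cells, which form the inner lining of blood vessels. Members were chosen by name, as the array probes that carry the mouse names mmu-miR-106b-5p, mmu-miR-93-5p and mmu-miR-25-3p from the first cluster and mmu-miR-106a-5p, mmu-miR-18b-5p, mmu-miR-20b-5p and mmu-miR-363-3p from the other. All 7 were found among 1118 mouse miRNA probes. One set of vesicles came from cells kept at high phosphate (3.5 mM inorganic phosphate) for 48 h, with 3 arrays. The other set came from cells kept at normal phosphate (0.9 mM) for the same time, also with 3 arrays. Both groups shared a medium with 12% fetal bovine serum, endothelial growth supplement and heparin, and vesicles were collected from the supernatant by differential centrifugation. The cells were bought, and the sources used here name no strain, sex or vessel of origin. The study concerns arterial calcification in kidney failure. Nothing in the labels says that the arrays of one phosphate level stand for separate cultures, so p-values reflect only how these samples scatter, and that scatter may be technical.

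A miRNA guides a silencing complex to messenger RNAs, mainly through its seed, bases 2 to 8 from the 5′ end. The miR-17 cluster and its copies are known as promoters of proliferation and survival, and targets of the miR-17 seed family include the cell cycle inhibitor p21. In endothelial cells, miR-92a, which has the seed of miR-25, is known to restrain vessel growth. The miR-106b-25 hairpins lie inside Mcm7, a gene for a subunit of the replicative helicase, and are made along with its transcript. The miR-106a-363 hairpins lie on the X chromosome, and their cluster is known to be little expressed in most adult tissues.

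The mature sequences show why the 2 clusters are read together, since each seed among the 7 members occurs in both clusters except that of miR-18b. They were taken from RefSeq (GRCm38.p6), in which all 7 members were matched, and are written 5′ to 3′ with the seed in capitals. The first set carries the miR-17 seed, with miR-17-5p and miR-20a-5p of the original cluster for comparison.
miR-106b-5p: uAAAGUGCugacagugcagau
miR-93-5p: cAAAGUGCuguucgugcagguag
miR-106a-5p: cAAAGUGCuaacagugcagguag
miR-20b-5p: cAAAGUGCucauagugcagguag
miR-17-5p: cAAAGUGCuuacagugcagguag
miR-20a-5p: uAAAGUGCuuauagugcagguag
The next set carries the miR-18 seed, which differs from the miR-17 seed in the capitals, with miR-18a-5p as the relative from the miR-17 cluster.
miR-18b-5p: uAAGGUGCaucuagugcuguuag
miR-18a-5p: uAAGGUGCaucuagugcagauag
The last set carries the miR-25 seed, with miR-92a-3p as the relative from the miR-17 cluster.
miR-25-3p: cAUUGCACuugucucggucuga
miR-363-3p: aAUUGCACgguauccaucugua
miR-92a-3p: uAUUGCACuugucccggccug

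Several members differ from a relative by few bases outside the seed, which matters for an array that reads each by hybridisation. Counted from the 5′ end, with the base of the first-named miRNA given first, miR-106a-5p differed from miR-17-5p by A10U alone. Between miR-106a-5p and miR-20b-5p the differences were A10C and C12U. Between miR-20b-5p and miR-20a-5p they were C1U and C10U, and between miR-18b-5p and miR-18a-5p they were U18A and U20A. In miR-93-5p, 3 bases differed from miR-20b-5p, namely G10C, U11A and C13A. In the pair with the miR-25 seed, miR-25-3p and miR-363-3p, both of 22 bases, differed at 13 positions without gaps, and 7 single-base edits turn one into the other when gaps are allowed. How far the capture probes tell such relatives apart was not tested, and signal of miR-106a-5p, miR-20b-5p and miR-18b-5p may be shared with the relatives named here.

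In GRCm38.p6 the 3 hairpins of miR-106b-25 span chr5:138165321-138165818 on the minus strand, 498 bases that all lie within Mcm7 (chr5:138164583-138172111). The mature miR-106b-5p is at chr5:138165787-138165807, miR-93-5p at chr5:138165574-138165596 and miR-25-3p at chr5:138165332-138165353. The miR-106a-363 hairpins span chrX:52741693-52742567 on the minus strand, 875 bases with 6 hairpins. The long noncoding RNA gene Kis2 (chrX:52742563-52744593) overlaps the upper end of the span without containing it. The rest of the annotation was not searched for a gene around this span. There miR-106a-5p is at chrX:52742541-52742563, miR-18b-5p at chrX:52742381-52742403, miR-20b-5p at chrX:52742159-52742181 and miR-363-3p at chrX:52741697-52741718. The other 2 hairpins of this span, Mir19b-2 and Mir92-2, make miR-19b-3p and miR-92a-3p, which the miR-17 cluster makes too, so an array cannot assign those products to a locus.

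Signal was read as foreground minus local background, in the scanner's units, and averaged over 4 spots per probe. Probes for miRNAs of mouse viruses gave a threshold of unspecific signal, the 95th percentile of 57 such probes, which lay between 1627 and 3233 units on the 6 arrays. Against it, miR-106b-25 had 1, 1 and 2 of its 3 members above the threshold on the high phosphate arrays and 2 on each normal phosphate array. None of the 4 members of miR-106a-363 passed it on any array. Against the Empty spots, whose 95th percentile was 2 to 3 units, all 7 members were above on every array. A member under the viral threshold therefore has a measured value that unspecific hybridisation could equal, and its level is given here without being called present. No spot of a member was saturated. Levels are compared between arrays for one probe, and not between probes.

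miR-25-3p, which shares its seed and thus many predicted targets with miR-92a-3p, was above the viral threshold on all 6 arrays. It had 28023.5, 34661.75 and 19964.5 units in high phosphate vesicles, against 26300, 25898 and 35685.5 units in normal phosphate vesicles. The highest array was normal replicate 3 and the lowest was high replicate 3, and the groups overlapped. The means were 27550 ± 7360 units at high phosphate and 29294 ± 5538 units at normal phosphate (SD, n = 3 each).

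miR-93-5p, a member of the miR-17 seed family, had 2644.5, 1441.75 and 4537 units in high phosphate vesicles, against 4604.75, 4985.75 and 4300 units in normal phosphate vesicles. It was above the viral threshold on 1 of 3 high phosphate arrays and on all 3 normal phosphate arrays. High replicates 1 and 2 were lower than every normal array, while high replicate 3 lay among the normal arrays, so the groups overlapped. The mean was 2874 ± 1560 units at high phosphate and 4630 ± 344 units at normal phosphate (SD, n = 3 each).

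miR-106b-5p, also of the miR-17 seed family, was under the viral threshold on all 6 arrays. It had 508.75, 477.25 and 465 units in high phosphate vesicles, against 669.5, 609.75 and 510.5 units in normal phosphate vesicles. It was the only member whose groups did not overlap on this scale, with each high phosphate array below each normal one, although the nearest values were 508.75 and 510.5 units. Of all 1118 mouse probes, 3.31% showed such a separation in that direction. After normalization between arrays the groups overlapped.

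All 4 members of miR-106a-363 were dim. miR-106a-5p had 333.5, 602.5 and 526.75 units in high phosphate vesicles, against 966.5, 513.75 and 576.25 units in normal phosphate vesicles. miR-20b-5p, which like miR-106a-5p carries the miR-17 seed, had 308.75, 450.25 and 312.25 units at high phosphate, against 600.5, 337.25 and 353.25 units at normal phosphate. Both were highest on normal replicate 1, and the other normal arrays lay within or next to the range of the high phosphate arrays. miR-18b-5p, the member with the miR-18 seed, had 56.25, 40.5 and 56.25 units at high phosphate, against 71.5, 30.75 and 16 units at normal phosphate. miR-363-3p, the miR-25 seed member of this cluster, had 23.5, 24 and 10.25 units at high phosphate, against 27.5, 25.75 and 5.75 units at normal phosphate. The normal phosphate arrays held both the highest and the lowest value of miR-18b-5p and of miR-363-3p.

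**Figure D1:**
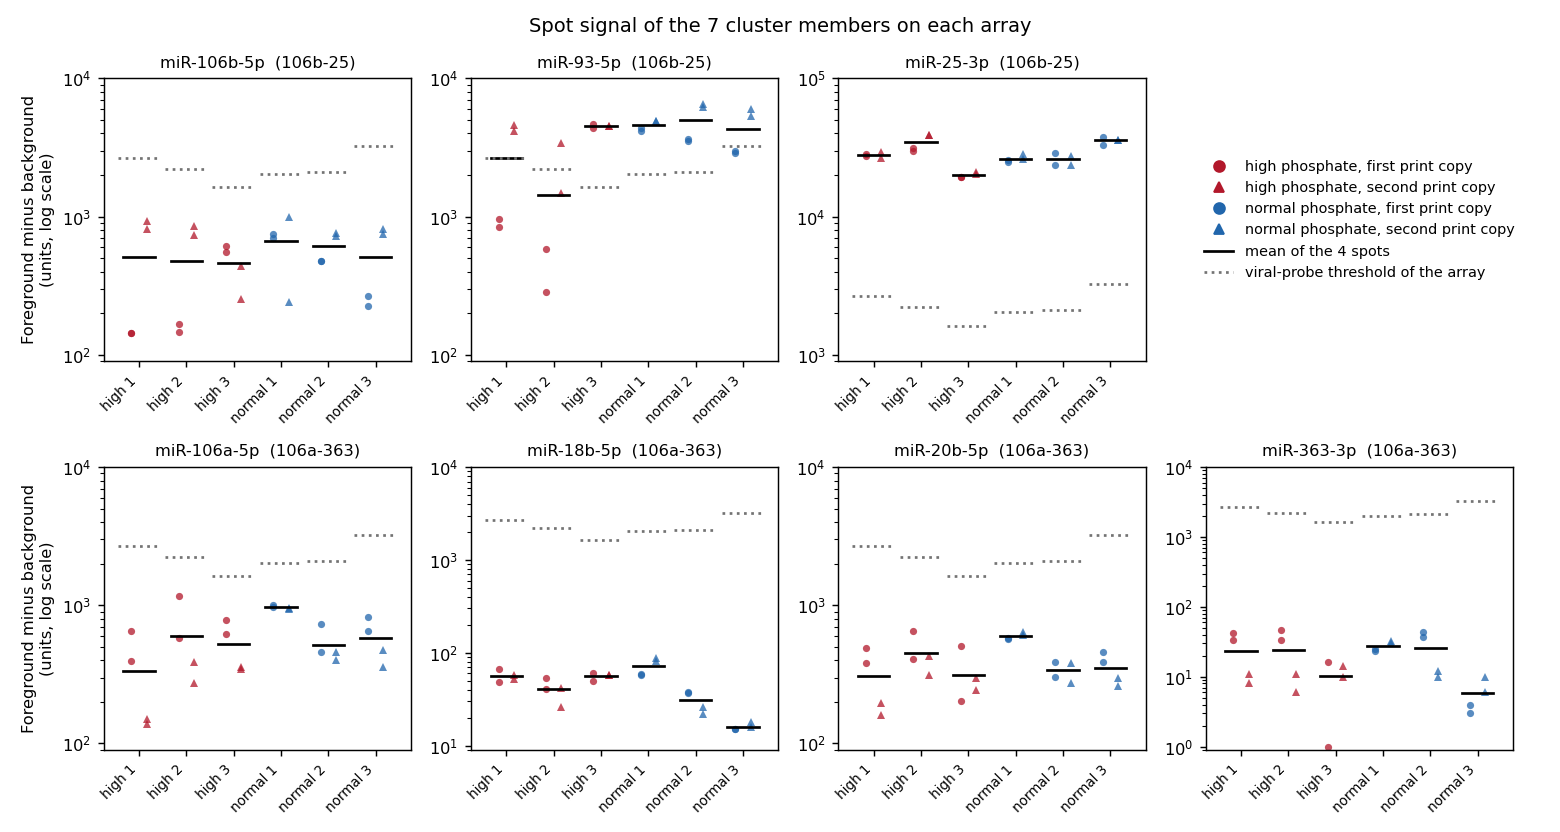
Foreground minus background of each spot (units, log scale, own range per panel) for the 7 members on the 6 arrays, with circles and triangles for the spots of the first and second print copy, bars for the mean of 4 spots and dotted lines for the array's viral-probe threshold. miR-25-3p lies above the threshold on all 6 arrays and the 4 members of miR-106a-363 below it, and the spots of miR-93-5p on high replicates 1 and 2 fall into a low and a high pair.

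High and normal phosphate were compared with limma on normalized log2 values, as high minus normal phosphate. Of 129 mouse probes that passed the signal filter (above the viral threshold on at least 3 arrays), 0 had an adjusted p under 0.05, and 0% is thus the background of calls. Of the 7 members, 2 passed the filter and 0 were called. After normalization miR-25-3p had log2 values of 14.97, 14.90 and 14.70 in high phosphate vesicles and 14.75, 14.63 and 14.80 in normal phosphate vesicles. Its log2 difference was 0.13 (SE 0.19, adjusted p = 0.890), a fold of 1.09 with a 95% interval of 0.808 to 1.48. Its linear means ran the other way, and so did the log2 difference without normalization between arrays, at -0.11. miR-93-5p had log2 values of 11.44, 10.53 and 12.39 in high phosphate vesicles and 12.12, 12.27 and 12.08 in normal phosphate vesicles. Its log2 difference was -0.71 (SE 0.43, adjusted p = 0.853), a fold of 0.613 with a 95% interval of 0.304 to 1.24. miR-93-5p was above the viral threshold on 3 normal but only 1 high phosphate array. It thus passed the filter mainly through the group in which it was higher. It was below every normal array on 2 of 3 high phosphate arrays, and the difference lay between -1.20 without high replicate 3 and -0.24 without high replicate 2. Neither value differed beyond the spread between arrays, and neither interval shows that the levels were alike.

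The same fit over all 1118 mouse probes, with no filter, gave every member a difference on the log2 scale. Here too 0 probes were called (0%), 63 had an unadjusted p under 0.05, and none of the 7 members was among those 63. With each probe's ordinary variance in place of limma's moderated one, 0 were called and 45 had an unadjusted p under 0.05. miR-106b-5p had a log2 difference of -0.29 (SE 0.13, 95% interval -0.62 to 0.03, adjusted p = 0.776). miR-106a-5p differed by -0.43 (SE 0.31, 95% interval -1.23 to 0.38), and miR-20b-5p by -0.21 (SE 0.25, 95% interval -0.85 to 0.43). miR-18b-5p stood at 0.02 (SE 0.21) and miR-363-3p at -0.06 (SE 0.13). miR-18b-5p read at most 71.5 units and miR-363-3p at most 27.5, and at such signal the offset of 50 units in the background correction draws log2 differences toward 0. Adjusted p-values of the 7 members lay between 0.776 and 0.993.

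**Figure D2:**
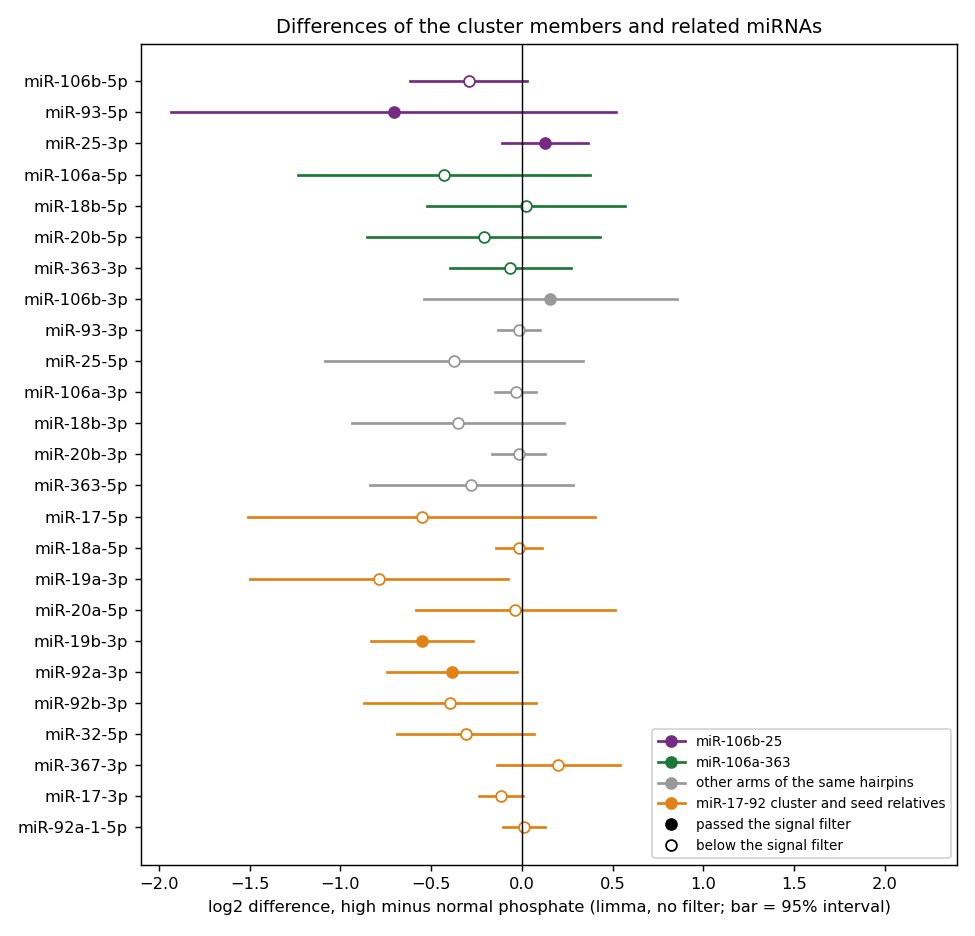
Log2 difference of high minus normal phosphate with its 95% interval (limma over all mouse probes, n = 3 arrays per group) for the 7 members, the other arms of their hairpins and the listed relatives. The relatives are probes of the miR-17 cluster and other miRNAs with the seed of miR-25. Filled points passed the signal filter. All 7 intervals of the members include 0, and that of miR-93-5p is the widest among them, from -1.93 to 0.52.

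Set side by side after normalization, miR-106b-25 had 2 members with a lower and 1 with a higher log2 mean at high phosphate. In miR-106a-363, 3 were lower and 1 higher. The median log2 difference was -0.29 (range -0.71 to 0.13) for miR-106b-25 and -0.14 (range -0.43 to 0.02) for miR-106a-363. Over all 7 members it was -0.21. Among all 1118 mouse probes, 573 were lower and 545 higher, with a median of 0.00. After normalization, 0 of the 7 members had groups that did not overlap, against 8.68% of all mouse probes. The order of the cluster medians rested on single arrays and spots, and the difference between the clusters was not tested.

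Normal replicate 1 had much weight in the miR-106a-363 values. After normalization, all 4 members of that cluster and miR-106b-5p had their highest value there, against 22.7% of the 1118 mouse probes. Without this array the median of miR-106a-363 was 0.02 and that of miR-106b-25 was -0.20. miR-20b-5p then stood at 0.03, miR-363-3p at 0.01 and miR-106a-5p at -0.14.

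Each probe was printed as 2 pairs of spots in separate blocks of the array, here called the first and second print copy. They give a technical error within an array, and this choice was made after the spot values were seen. The spots of miR-25-3p were close, with copies that differed by at most 1.27-fold on any array. The copies of miR-93-5p were far apart on the arrays where it was low. On high replicate 1 the first copy of miR-93-5p read 903.5 and the second 4385.5 units, and on high replicate 2 they read 431.5 and 2452 units. On high replicate 3 they read 4525.5 and 4548.5 units. On the normal phosphate arrays the first copy read 4289, 3564 and 2931.5 units and the second 4920.5, 6407.5 and 5668.5 units. The second copy was thus higher on all 6 arrays, by up to 5.68-fold. On high replicates 1 and 2 both copies read below the same copy on every normal phosphate array.

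The other miR-17 seed members differed in how far their copies lay apart and in which copy was higher. miR-106b-5p differed between copies by up to 6.09-fold, with 143.5 and 874 units on high replicate 1 in the first and second copy, and 156 and 798.5 units on high replicate 2. On high replicate 3 the order was turned, at 584 and 346 units. miR-106a-5p was higher in the first copy on all 6 arrays, by up to 3.63-fold, with 523 and 144 units on high replicate 1 as the extreme. The largest fold between copies was 2.47 for miR-20b-5p, 1.56 for miR-18b-5p and 4.65 for miR-363-3p, whose signal was only a few units in places. Among the 129 tested probes the median fold between copies was 1.28, 1.39 and 1.21 on the high phosphate arrays, against 1.06, 1.12 and 1.17 on the normal phosphate arrays. The share of those probes with copies over 2-fold apart was 27.1%, 25.6% and 9.30% on the high phosphate arrays, against 0.775%, 5.43% and 8.53% on the normal phosphate arrays. Among the 129 tested probes, the print copies thus disagreed more on high replicates 1 and 2 than on the other arrays.

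Fitted on 1 copy at a time, the differences of the members moved. miR-93-5p had a log2 difference of -1.24 (SE 0.96) in the first copy and -0.55 (SE 0.31) in the second. In the second copy its high phosphate arrays, before scaling, lay below all normal ones, and so did those of miR-106a-5p, a separation that 5.55% of mouse probes showed in that copy. In the first copy, in which 3.85% of mouse probes showed it, neither was separated. The difference of miR-106a-5p was -0.14 (SE 0.27) in the first and -0.99 (SE 0.44) in the second. miR-106b-5p stood at -0.74 (SE 0.58) in the first and -0.20 (SE 0.35) in the second. Its groups, which did not overlap before scaling in the mean of all 4 spots, overlapped in each copy taken alone. miR-25-3p stood at 0.02 (SE 0.16) and 0.04 (SE 0.10). The cluster medians changed order: in the first copy -0.74 for miR-106b-25 and 0.04 for miR-106a-363, and in the second -0.20 and -0.35. No probe was called in either copy.

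**Figure D3:**
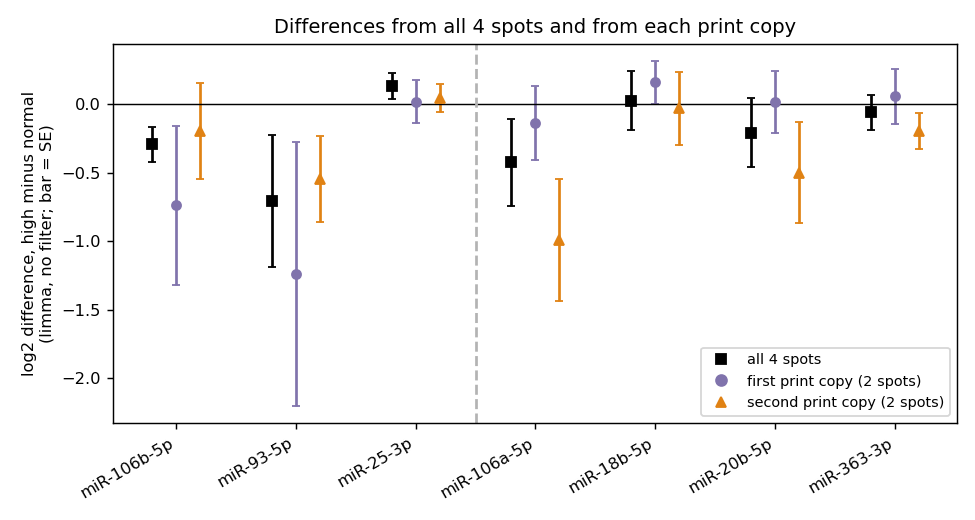
Log2 difference of high minus normal phosphate (limma over all mouse probes, n = 3 arrays per group, bars for the SE) for the 7 members from all 4 spots, from the first print copy and from the second. miR-25-3p keeps a small SE at 0.02 and 0.04, miR-93-5p lies at -1.24 in the first and -0.55 in the second copy, and miR-106a-5p at -0.14 and -0.99.

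How arrays are put on one scale decides the sign of several members. Scaling to the spike controls moved the median log2 difference of all mouse probes to 0.42, and scaling to the Hy3 spots, the positive dye spots, moved it to 0.46. With no normalization it was -0.22. Relative to the median of all probes, these linear scalings gave the same values: miR-93-5p -0.61, miR-106a-5p -0.27, miR-106b-5p -0.09, miR-363-3p -0.09, miR-20b-5p -0.06, miR-25-3p 0.11 and miR-18b-5p 0.14. Only miR-93-5p among the members was negative under each alternative run, from -1.24 to -0.15, and it was called under none of them. These runs reuse the same 6 arrays, so a constant sign is no independent evidence. How many of all mouse probes kept their sign was not counted. Before scaling, the mean log2 signal of the spike controls was 9.04, 9.54 and 9.39 on the high phosphate arrays. On the normal phosphate arrays it was 10.09, 9.87 and 9.94. The Hy3 spots read 9.03, 8.93 and 8.74 in log2 at high phosphate, against 9.37, 9.69 and 9.66 at normal phosphate. Both controls were thus lower on every high phosphate array than on any normal one, and the cause was not tested. Whether the vesicles of one group held less miRNA in all, and whether fewer vesicles or less miRNA per vesicle lay behind a lower signal, cannot be told apart here.

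**Figure D4:**
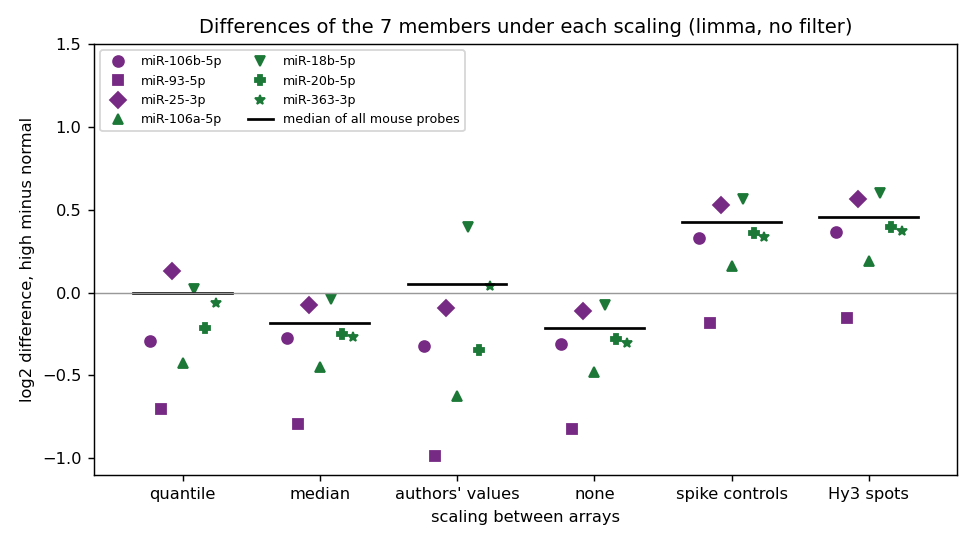
Log2 difference of high minus normal phosphate for the 7 members under each scaling between arrays, with the median of all 1118 mouse probes under the same scaling. The members shift along with that median, which lies at -0.22 without normalization and at 0.46 after scaling to the Hy3 spots.

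Within an array, the log2 ratio of 2 members does not depend on a linear scaling. The ratios given here were taken after quantile normalization, which is not linear, so they do depend on that step. In this way 6 pairs were compared between the groups. For miR-93-5p over miR-25-3p, made from the same transcript, the log2 ratio was -3.53, -4.37 and -2.31 in high phosphate vesicles and -2.62, -2.36 and -2.72 in normal phosphate vesicles. High replicates 1 and 2 were below the normal arrays and high replicate 3 above them, and the difference was -0.84 (2-sided exact permutation p = 0.4). The paralogous pair with the miR-25 seed, miR-25-3p over miR-363-3p, differed by 0.19 (exact p = 0.3). miR-106b-5p over miR-106a-5p differed by 0.13 (exact p = 0.6), and miR-93-5p over miR-20b-5p by -0.49 (exact p = 0.7). miR-106b-5p over miR-25-3p differed by -0.42 (exact p = 0.2), and miR-93-5p over miR-106b-5p by -0.41 (exact p = 0.6). In every pair the groups overlapped, and all 6 p-values were 0.7 after Benjamini-Hochberg adjustment. With 3 against 3 arrays the smallest p such a test can give is 0.1.

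The other arm of each hairpin comes from the same precursor and was read by its own probe, which is no repeat measurement of the member. Of the 7 other arms on the array, 1 passed the filter and 0 were called. In mean log2 value after normalization 6 were lower and 1 higher, with a median log2 difference of -0.03. miR-106b-3p was above the viral threshold on all 6 arrays while its partner miR-106b-5p was under it on all 6. It had 4555.5, 6875.25 and 4820 units in high phosphate vesicles, against 3726, 6763 and 5619.5 units in normal phosphate vesicles, and the groups overlapped. Its log2 difference was 0.16 (SE 0.28, adjusted p = 0.918), of the opposite sign to that of miR-106b-5p. miR-18b-3p averaged 575 ± 177 units at high phosphate and 691 ± 153 units at normal phosphate (SD, n = 3 each), and miR-25-5p 173 ± 43 and 246 ± 110 units at high and normal phosphate. miR-93-3p and miR-106a-3p, both counted among the 6 lower arms, were not above the Empty spots on any array.

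Relatives of the members were listed as 8 probes of the miR-17 cluster and 3 other miRNAs with the seed of miR-25. Of the other arms of that cluster, only miR-17-3p and miR-92a-1-5p were listed. Of these 11 probes, 2 passed the filter and 0 were called in either direction. In mean log2 value after normalization, 9 were lower and 2 higher in high phosphate vesicles. The median of their log2 differences was -0.31 (range -0.79 to 0.20). miR-17-5p, the closest relative of miR-106a-5p, had 815.75, 999 and 536 units in high phosphate vesicles, against 1691.25, 882.25 and 867.25 units in normal phosphate vesicles. As with miR-106a-5p, normal replicate 1 was the highest array, and the log2 difference was -0.55 (SE 0.37). miR-92a-3p, the relative of miR-25-3p with the same seed, had 7754.5, 8388.25 and 5709.5 units at high phosphate, against 10493.5, 9013.25 and 13276.5 units at normal phosphate. Its groups did not overlap, before scaling (as for 3.31% of mouse probes in that direction) or after normalization (4.74%), and its log2 difference was -0.38 (SE 0.21, adjusted p = 0.828). miR-19b-3p, made by both the miR-17 cluster and the miR-106a-363 span, had 1397, 1494.75 and 1667.5 units at high phosphate, against 2433.5, 2312.75 and 2157 units at normal phosphate. Its groups did not overlap on either scale, and its log2 difference was -0.55 (SE 0.19, adjusted p = 0.518). It passed the filter with 2 normal and 1 high phosphate array above the viral threshold. miR-19a-3p differed by -0.79 (SE 0.28, adjusted p = 0.776), and every high phosphate array was below every normal one on both scales. miR-20a-5p differed by -0.04 (SE 0.21), and miR-18a-5p, the relative of miR-18b-5p, was above the Empty spots on no array.

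For both members that passed the filter, the tested probes with the most similar pattern over the 6 arrays were looked up by Pearson's r of normalized log2 values among 128 probes. For miR-93-5p these were let-7c-5p (r = 0.89), miR-541-5p (r = 0.85) and miR-466i-5p (r = 0.84). For miR-25-3p they were miR-10b-5p (r = 0.86), miR-192-5p (r = 0.84) and miR-1961 (r = 0.83). Of the 128 probes, 2.34% exceeded r = 0.8 for each. These values describe 6 arrays that share a scaling and a scan, and no other member was above the filter.

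In the authors' deposited table, the fold of high over normal phosphate was below 1 for 6 of 7 members. The share of all its miRNAs with a fold below 1 was not counted. With the authors' normalized values, the median log2 difference was -0.21 over the tested probes and 0.05 over all mouse probes. The fold was 0.784 for miR-106b-5p, 0.594 for miR-93-5p and 0.953 for miR-25-3p in the authors' deposited table. For miR-106a-363 the authors' deposited table gave 0.620 for miR-106a-5p, 1.30 for miR-18b-5p, 0.757 for miR-20b-5p and 0.982 for miR-363-3p. The lowest false discovery rate of a member in the authors' deposited table was 0.794.

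Markers of the labelled cell type and of other sources were read on the same arrays. Sums are in units before scaling and are not meant for a comparison between marker groups. With no normalization between arrays, the median log2 difference of all mouse probes was already -0.22. Both arms of miR-126a, the endothelial marker, were above the viral threshold on all 6 arrays, and summed to between 11924 and 17480 units at high phosphate and between 16243 and 18150 units at normal phosphate. So were all 4 probes for miRNAs of red cells and serum (miR-451a, miR-144-3p, miR-486a/b-5p and miR-16-5p), sources in which miR-25, miR-93 and miR-106b are also known to be abundant. Those 4 probes summed to between 50872 and 67092 units at high phosphate and between 66029 and 83490 units at normal phosphate, and all 4 were lower in mean, with a median log2 difference of -0.13. The liver marker miR-122-5p was above the threshold on all arrays as well, at 8517 to 14182 units at high phosphate and 12880 to 24575 units at normal phosphate. The smooth muscle markers summed to between 32743 and 46635 units at high phosphate and between 42698 and 58615 units at normal phosphate, of which miR-143-3p was above the threshold on all 6 arrays and miR-145a-5p on 0. All 4 leukocyte probes had a lower mean, with sums of 4088 to 5915 units at high phosphate and 4676 to 7615 units at normal phosphate, and 1 of them, miR-142a-5p, was above the threshold on all arrays. The groups of miR-142a-3p, under the threshold on all 6 arrays, did not overlap, with high below normal before scaling and after normalization. Of all mouse probes, 3.31% and 4.74% showed this. Its log2 difference was -0.42 (SE 0.09, limma adjusted p = 0.679 without the filter). miR-126a-3p and miR-16-5p were separated in that direction before scaling, but overlapped after normalization. The miR-126a arms had log2 differences of -0.30 for miR-126a-3p and 0.17 for miR-126a-5p. Of 13 marker probes, 9 passed the filter, 0 were called and none was at 0. Mature miRNAs are often identical between mouse and cattle, and the part of the serum in the medium in these signals was not tested.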

How the data were processed

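Exosomal RNA labelled with Hy3 was read on 6 one-colour miRNA arrays, 3 per phosphate level. Per the file headers, the authors deposited spot intensities, as foreground and as foreground minus background. They also deposited normalized intensities, here treated as a ratio: by comparison with the spot values, each equals the median foreground minus background of a probe divided by a factor for its array (319 to 344.5 units, 2785 of 2785 probes within 1e-06), neither centred nor logged, with column medians of 0.307 to 0.403. The authors' deposited table gives, per miRNA, a fold change (ratio) with its p-value and false discovery rate. The sources used here name no scanner, image software or capture sequence.

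Background correction of these spots used normexp (offset 50), the 4 spots of a probe were averaged, and arrays were quantile normalized over mouse and viral miRNA probes and taken to log2. Probes with a mean signal above the 95th percentile of viral miRNA probes on at least 3 of 6 arrays were tested (129 of 1118) with limma 3.58.1 in R 4.3.3 (lmFit, eBayes), 2-sided, Benjamini-Hochberg adjusted, at 0.05. A fit without the filter gave each member a difference. Precision is limited by the number of arrays. Within-array ratios of the quantile normalized values were compared by exact permutation. Named were the 7 members, their other arms, the listed relatives (miR-17 cluster or miR-25 seed) and the 3 probes most like each tested member. Members and lists were chosen with earlier results of these data known. Alternatives covered background, scaling, filter, spots, variance, weights, the replicate block and each array left out. The 2 print copies were added after seeing the data. No 2 arrays held identical values.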

Additional observations from a re-analysis of the deposited data

How the results depend on the processing

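No member was called under any alternative. Over all tested probes, 0 calls became 7 with Hy3 scaling. Without the filter, 0 calls became 8 with no normalization, 40 with spike scaling and 137 with Hy3 scaling. Under spike and Hy3 scaling the log2 differences of miR-106b-5p were 0.33 and 0.36, of miR-106a-5p 0.16 and 0.19, of miR-20b-5p 0.36 and 0.39, and of miR-363-3p 0.34 and 0.37. The medians of miR-106b-25 were then 0.33 and 0.36, and those of miR-106a-363 were 0.35 and 0.38. These scalings add a constant to every probe. miR-25-3p turned to -0.0757 with median scaling, -0.11 with none and -0.0933 with the authors' normalized values. miR-18b-5p turned to -0.0403 with median scaling, -0.0741 with none and -0.0312 in the second print copy. In the first copy miR-20b-5p was 0.0144 and miR-363-3p 0.0562, and the miR-106b-25 median was -0.74. With the authors' values miR-363-3p was 0.0409. The cause was not tested.

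Leaving out 1 array at a time gave ranges of -0.42 to -0.20 for miR-106b-5p and for the miR-106b-25 median, -1.20 to -0.24 for miR-93-5p, 0.08 to 0.22 for miR-25-3p, -0.61 to -0.14 for miR-106a-5p, -0.35 to 0.0300 for miR-20b-5p, -0.11 to 0.26 for miR-18b-5p and -0.16 to 0.0163 for miR-363-3p. The miR-106a-363 median ranged from -0.25 to 0.02. miR-363-3p was positive without high replicate 3 (0.0163) or normal replicate 1 (0.0142), and miR-18b-5p negative without normal replicate 2 (-0.0723) or 3 (-0.112). Each such fit had 0 calls.

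With the replicate number as a block, 0 probes were called in both fits and miR-93-5p stood at -0.71 (SE 0.40, limma adjusted p = 0.785). The block changed no call. The deviations of same-numbered arrays from their group means correlated at 0.22, 0.03 and -0.18, so the numbers were not taken as pairs, and not every array correlated best with its own number. With the Empty-spot threshold, 3 members of miR-106b-25 and 4 of miR-106a-363 were above it per array, and with a fixed 50 units, 3 and on average 2.5. With the viral threshold required on all 6 arrays, miR-93-5p was not tested. Signal at or below the viral threshold limits 6 of the 7 members, miR-25-3p excepted.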

Other observations

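The array also names an arm of each of the other hairpins in the miR-106a-363 span, and both arms were added after their values were seen. miR-19b-2-5p had 620.25, 470.75 and 1164 units in high phosphate vesicles, against 235.5, 693.25 and 345.25 units in normal phosphate vesicles. miR-92a-2-5p had 2345.5, 586 and 1698 units at high phosphate, against 594.25, 1476.5 and 647.5 units at normal phosphate. The groups overlapped for both, with log2 differences of 0.74 (SE 0.46) and 0.68 (SE 0.62) and limma adjusted p-values of 0.776 and 0.789. miR-92a-2-5p was above the viral threshold on 1 array and miR-19b-2-5p on 0. Both had a higher log2 mean at high phosphate, while 3 of the 4 members from the same span had a lower one.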
